A study of Mus musculus with 6 samples.

Results

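Gsdmd, which encodes the pore-forming protein of pyroptosis, and H2-Q7, a class Ib gene of the mouse major histocompatibility complex, were read in the heart of diabetic and control mice. Each gene was followed through 1 probe, A_51_P172231 for Gsdmd (NM_026960) and A_51_P262079 for H2-Q7 (NM_010394). These are 2 of the 50 mRNA probes on an array built for circular RNAs, which held 14330 non-control probes in all. Both probes were present in 10 spots on every array, and all 10 spots were used on each.

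The study compared the cardiac apex of db/db mice with that of C57BL/6 mice, both at 21 weeks of age, with 3 arrays per group and a different donor animal for each array. Mice with 2 copies of the db allele lack a working long form of the leptin receptor and become obese and diabetic. The labels name no treatment in either group. The labels name no strain on which the db allele was kept and do not call the C57BL/6 mice littermates. Class I genes of the major histocompatibility complex differ between inbred strains, and the part of strain in the values of H2-Q7 was not tested. The mRNA probes with a gene name held none for Lepr, so the genotype could not be checked on the arrays. RNA was digested with RNase R, which removes linear RNA, before labelling with Cy3, so the signal of an mRNA probe comes from what that digestion left.

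Gasdermin D waits in the cytosol as an inhibited precursor. Inflammatory caspases, activated by inflammasomes or by bacterial lipopolysaccharide inside the cell, cleave it, and the freed amino-terminal fragment assembles into pores in the plasma membrane. The cell then swells and releases cytokines. Because cleavage controls the pore, the level of the transcript alone does not report pore formation. H2-Q7 belongs to the genes of the Q region that encode the Qa-2 antigen. This class I molecule is held at the cell surface by a lipid anchor and can present peptides to lymphocytes. Class I genes are known as targets of interferon signalling.

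Of these genes, H2-Q7 had a RefSeq promoter entry, printed here because the Q region holds close copies and because its upstream sequence carries the elements shared by class I genes. The stretch lies at chr17:35438905-35439139 (GRCm38.p6, plus strand) and ends before the annotated start of the gene. Its 235 bases are given 5′ to 3′, with capitals marking 2 matches, GGGATTC (core of a kappaB element) and TTTCACT (reverse strand of the interferon regulatory factor core AGTGAAA).

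H2-Q7: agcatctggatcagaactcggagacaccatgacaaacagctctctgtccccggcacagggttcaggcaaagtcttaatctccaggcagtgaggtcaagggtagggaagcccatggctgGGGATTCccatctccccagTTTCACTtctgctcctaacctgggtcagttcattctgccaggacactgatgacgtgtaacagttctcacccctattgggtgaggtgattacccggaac

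Both strands were searched, and the 2 matches do not overlap. Among all 32851 promoter entries of 300 bases, 4.32% held AGTGAAA, 3.08% held GGGATTC and 0.128% held both. Those entries were searched whole, while the stretch of H2-Q7 was cut before the gene start, so the shares are no like-for-like measure of rarity. The element TGACG, present once before H2-Q7, was found in 20.8% of entries, and CCAAT, also present once, in 37.4%. A match describes letters and does not show that a factor binds.

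A 50-base window placed on the TTTCACT match, with the same capitals, was taken from H2-Q7 and from 4 other class I genes. It shows how alike the copies are around that match. H2-Q7 lies at chr17:35439006-35439055, H2-Q6 at chr17:35424662-35424711, H2-Q4 at chr17:35379428-35379477, H2-Q10 at chr17:35469898-35469947 and H2-D1, a classical class I gene, at chr17:35262908-35262957, all on the plus strand of GRCm38.p6.
H2-Q7: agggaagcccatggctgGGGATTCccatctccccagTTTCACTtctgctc
H2-Q6: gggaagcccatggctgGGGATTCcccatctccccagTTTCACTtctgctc
H2-Q4: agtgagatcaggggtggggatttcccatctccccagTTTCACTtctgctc
H2-Q10: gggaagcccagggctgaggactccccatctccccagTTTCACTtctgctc
H2-D1: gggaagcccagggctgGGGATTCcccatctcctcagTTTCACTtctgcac

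The upstream stretch of each of the 5 genes held TTTCACT once, and each window was cut around it, so every window holds it by construction. GGGATTC is present in the windows of H2-Q7, H2-Q6 and H2-D1. Only these exact letters were searched. Where H2-Q6 and H2-D1 hold GGGATTC, H2-Q4 reads gggattt and H2-Q10 reads aggactc, both left in lower case. H2-Q4 and H2-Q10 may therefore hold a kappaB element of other letters, and the lower case does not show that they lack it. The capitals are 12 bases apart in H2-Q7 and 13 bases apart in H2-Q6 and H2-D1. Over the aligned upstream bases, H2-Q7 was identical to H2-Q6 at 190 of 195 (97.4%), to H2-Q4 at 176 of 195 (90.3%), to H2-Q10 at 162 of 188 (86.2%) and to H2-D1 at 167 of 196 (85.2%). On this assembly H2-Q6 and H2-Q10 are the protein-coding neighbours of H2-Q7, while Gsdmd on chromosome 15 lies between Zc3h3 and Mroh6. The sequence of the array probe was not used here, so the signal called H2-Q7 may include transcripts of its close copies, and their share was not tested.

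Both probes gave a signal over local background. All 10 spots of each were well above background on all 6 arrays, and none was saturated. Among the controls, numbered 1 to 3, the intensity of Gsdmd was 233, 192 and 171, and among the db/db arrays it was 221, 154 and 168. Before any scaling between arrays, the groups overlapped and the brightest array was a control. H2-Q7 read 1483, 939 and 683 in the controls, against 1087, 972 and 730 in db/db, in the same order of replicates. The groups overlapped for H2-Q7 as well. Local background at these spots was 18 to 20.25 units.

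The arrays also carried 15 probes named as negative controls, which measure signal in the absence of an intended target. On each array 2 of the 15, or 3 on db/db replicate 2, were brighter than Gsdmd, and 0 were brighter than H2-Q7. The brightest, MM9NEGATIVE016, read 552 to 984, and MM9NEGATIVE017 read 266 to 475. Probes differ in how strongly they bind, so this sets no order between genes, but a signal of the size of Gsdmd does not by itself establish a transcript.

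Levels were then placed on a common scale by taking log2 of the intensity and subtracting the 75th percentile of the array. The scaled level of Gsdmd was -1.61, -1.54 and -1.23 in control replicates 1 to 3, against -1.16, -0.94 and -1.16 in db/db replicates 1 to 3. The groups did not overlap, but only 0.064 parted the lowest db/db array from the highest control array. The 10 spots of an array had an SD of 0.03 to 0.06, which covers technical error within the array and not the spread between animals. The group mean was -1.46 ± 0.21 for the controls and -1.09 ± 0.13 for db/db (SD, n = 3).

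The log2 difference of Gsdmd, db/db minus C57BL/6, was 0.37 ± 0.16 (SE), or 1.29-fold, and its 95% interval ran from 0.0076 to 0.74. By limma fitted across all 14312 probes tested, its unadjusted p was 0.0463 and its adjusted p 0.463. The exact two-sided permutation test over the arrays gave 0.1, the smallest p that 3 against 3 can reach.

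For H2-Q7 the scaled levels were 1.05, 0.76 and 0.77 in the controls, against 1.14, 1.72 and 0.96 in db/db. One db/db array, replicate 2, stood well above the others, and db/db replicate 3 lay below C57BL/6 replicate 1, so the groups overlapped. The SD between spots within an array was 0.020 to 0.030, while the array means spanned 0.96. The group mean was 0.86 ± 0.17 for the controls and 1.27 ± 0.40 for db/db (SD, n = 3).

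The log2 difference of H2-Q7 was 0.41 ± 0.21 (SE), or 1.33-fold, and its 95% interval ran from -0.067 to 0.89. Its limma unadjusted p was 0.0839 and its adjusted p 0.518, with an exact permutation p of 0.2. Without db/db replicate 2 the log2 difference was 0.19. In whole tissue, more RNA per cell and more cells of a type that carries the transcript cannot be told apart, and this holds for both genes. The part of the RNase R digestion in either difference was not tested.

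**Figure D1:**
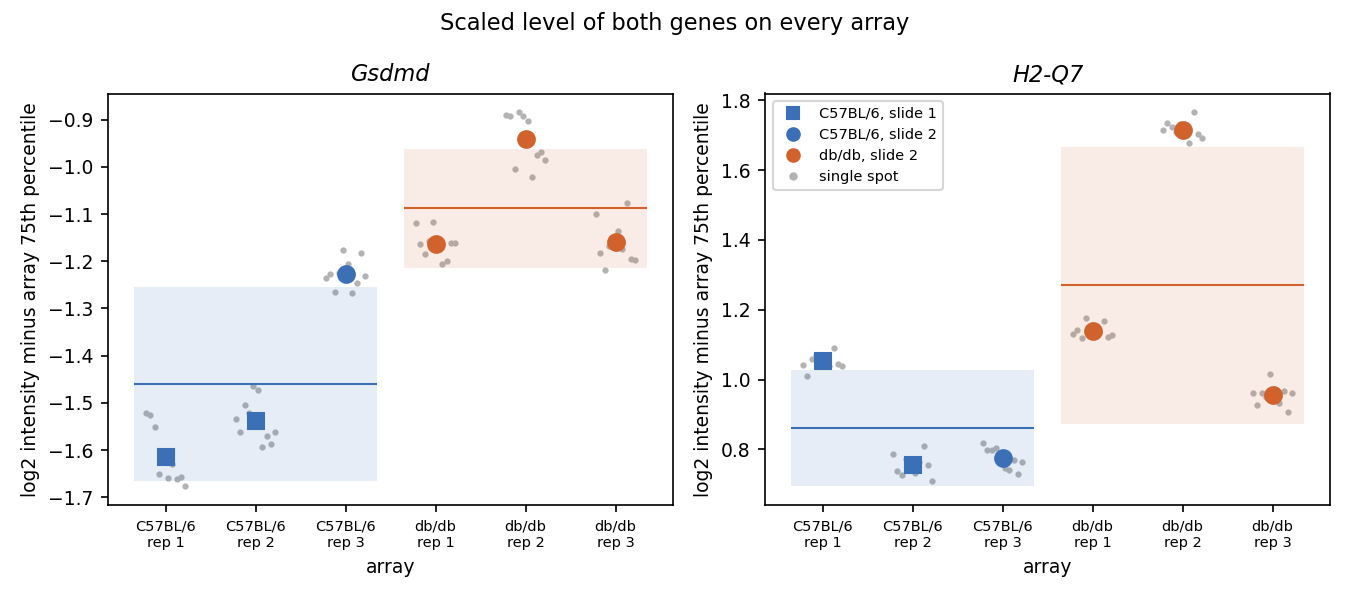
Scaled level (log2 intensity minus the 75th percentile of the array) of Gsdmd and H2-Q7 on each of the 6 arrays; large symbols are array means, squares for slide 1 and circles for slide 2 (slides as inferred from scan identifiers), grey dots are the 10 spots, lines are group means and bands ± SD (n = 3). The db/db arrays of Gsdmd all lie above the C57BL/6 arrays, by 0.064 at the nearest, while db/db replicate 2 at 1.72 carries much of the higher mean of H2-Q7.

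Both genes read higher in db/db on average, as did 42% of the 50 mRNA probes, 52% of all probes and 73.3% of the negative-control probes. Of the 2 genes, 1 (Gsdmd) had an unadjusted limma p under 0.05, and 0 of 2 passed an adjusted p under 0.05. The same unadjusted threshold was met, in either direction, by 16% of the 50 mRNA probes and by 10.6% of all probes, and with a higher value in db/db by 14% and 4.49%. Of the 15 negative-control probes, 3 (20%) met it, all with a higher value in db/db. The share of mRNA probes rested on 8 probes, a number that was 3 without C57BL/6 replicate 2, 3 without db/db replicate 2 and 0 with slide as a block. No probe among the 14312 passed after adjustment (0% of all probes). Groups without overlap and higher in db/db, as for Gsdmd, were found for 16% of mRNA probes, 9.75% of all probes and 20% of negative-control probes.

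The size of the differences was also set beside that of the other probes. Among the mRNA probes, ordered from the most raised in db/db, H2-Q7 was number 6 of 50 and Gsdmd number 8. A log2 difference above that of Gsdmd was found for 14% of mRNA probes, 7.25% of all probes and 5 of the 15 negative-control probes (33.3%). For H2-Q7 the shares were 10%, 5.53% and 4 of 15 (26.7%). The median log2 difference was -0.03 over the mRNA probes, 0.01 over all probes and 0.12 over the negative-control probes. Differences as large as those of Gsdmd and H2-Q7 were thus found among probes with no intended target.

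**Figure D2:**
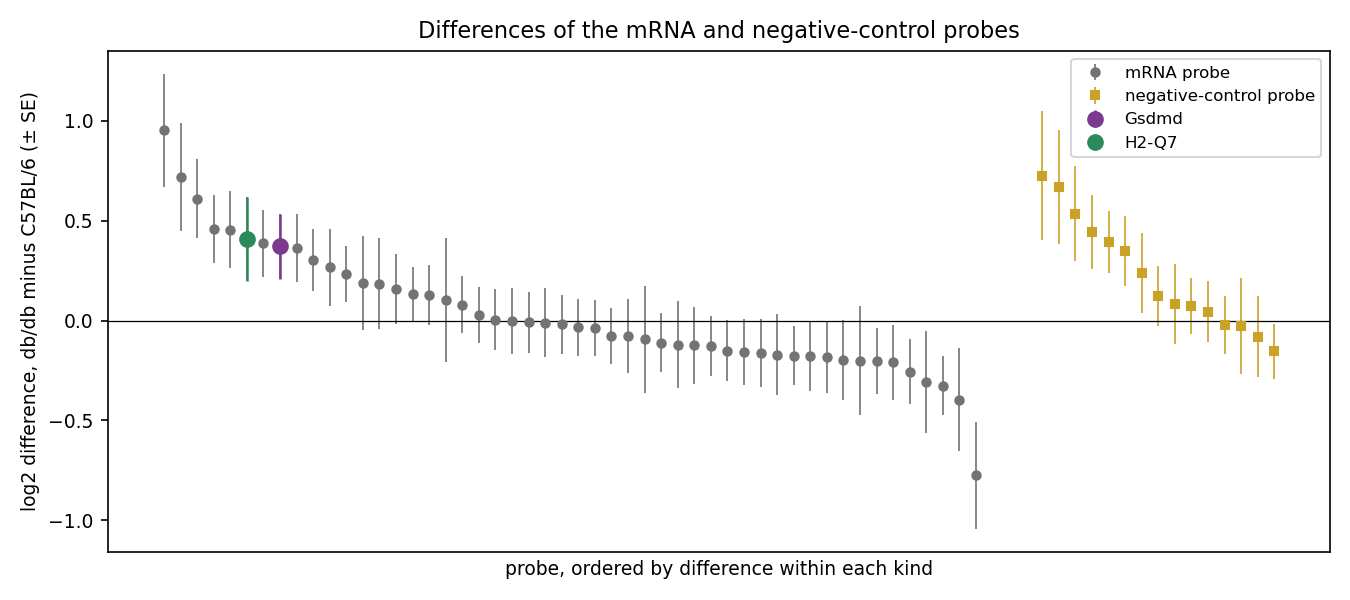
Log2 difference, db/db minus C57BL/6, with its limma SE for the 50 mRNA probes and the 15 negative-control probes, each kind ordered from high to low. H2-Q7 (0.41) and Gsdmd (0.37) sit at places 6 and 8 of the mRNA probes, and 4 negative-control probes lie above both.

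The db/db group, with the higher mean scaled values, also had the dimmer arrays on average. The 75th percentile of intensity was 715, 557 and 399 in the controls, against 494, 296 and 376 in db/db, a log2 difference of -0.51 (exact permutation p = 0.2). Unscaled, the log2 intensity of Gsdmd differed by -0.14 between groups (exact permutation p = 0.5) and that of H2-Q7 by -0.10 (exact permutation p = 1), where the median of all probes differed by -0.50. Relative to that median, Gsdmd was 0.36 and H2-Q7 0.40 higher, so between group means both signals dropped less than the median probe. For H2-Q7 this did not hold array by array. The dim arrays C57BL/6 replicate 3 (399) and db/db replicate 3 (376) had scaled levels of 0.77 and 0.96. Both levels lay below the 1.05 of the brightest array, C57BL/6 replicate 1 (715).

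The scaled level of Gsdmd was lowest on the brightest array and highest on the dimmest. The order broke between db/db replicate 1 and C57BL/6 replicate 3, the arrays on either side of the gap between groups, where the db/db array was brighter (494 against 399) and also higher for Gsdmd (-1.16 against -1.23). The unscaled log2 intensity of Gsdmd spanned 0.60 over the 6 arrays where the 75th percentile spanned 1.27. Its scaled level correlated with the 75th percentile at r = -0.93 (Spearman rho = -0.94, 6 arrays), and at r = -0.73 without the 2 arrays farthest from the median percentile. The percentile enters the scaled level, so the pair is not independent, and the coefficients are given as a description. Only 3 of the 50 mRNA probes, Gsdmd included, had a coefficient this low. The median was 0.20 over the mRNA probes and -0.74 over the negative-control probes. H2-Q7 had r = -0.51 (rho = -0.37), which was -0.04 without the same 2 arrays. The part of array brightness in the difference of Gsdmd was not tested.

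**Figure D3:**
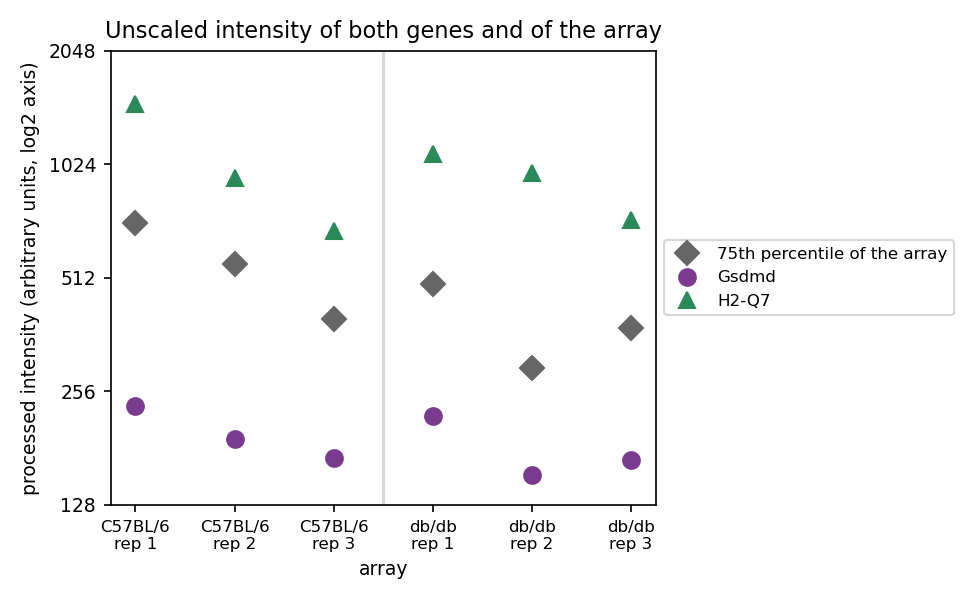
Processed intensity before scaling, on a log2 axis, of Gsdmd, of H2-Q7 and of the 75th percentile of each of the 6 arrays, with 1 point per array. Gsdmd ranges over 154 to 233 with both groups intermixed, while the 75th percentile ranges from 296 to 715 and is lowest on db/db replicate 2.

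No label names a slide, and arrays that share a scan identifier in their file headers were taken here as 1 slide. By this reading slide 1 held C57BL/6 replicates 1 and 2, and slide 2 held C57BL/6 replicate 3 with all db/db arrays. For Gsdmd the control on slide 2 read -1.23, 0.35 above the mean of the controls on slide 1. Within slide 2 the db/db arrays exceeded that control by 0.14 on average, and with slide as a block the limma SE was 0.22 and the unadjusted p 0.549. For H2-Q7 the control on slide 2 read 0.77, 0.13 below the mean of slide 1. Within slide 2 all 3 db/db arrays lay above it, by 0.50 on average, with an SE of 0.32 and an unadjusted limma p of 0.16 with slide as a block. Both values rest on a single control array. Against the pooled differences of 0.37 and 0.41, the value within slide 2 was thus smaller for Gsdmd and larger for H2-Q7.

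The 2 genes did not follow one order over the arrays. Both were highest on db/db replicate 2, but C57BL/6 replicate 1 was the lowest array for Gsdmd and the third highest for H2-Q7. Their scaled levels correlated at r = 0.63 (rho = 0.54, 6 arrays) and at 0.17 without db/db replicate 2. Over all 6 arrays the 2 log2 differences were close, with 0.04 between them (exact permutation p = 0.9 for that difference over 3 arrays per group). So few arrays cannot show that the 2 are equal, and within slide 2 they were 0.14 for Gsdmd and 0.50 for H2-Q7.

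The patterns most like each gene were sought among the named mRNA probes, by Pearson r of scaled levels over 6 arrays. For Gsdmd they included Rps4l (r = 0.91) and E2f1 (r = 0.88), a transcription factor of the cell cycle. Without the 2 arrays farthest from the median of Gsdmd, C57BL/6 replicates 1 and 2, these coefficients were 0.93 and 0.88. Both probes were dim, at 50 to 70 units for Rps4l and 30 to 45 for E2f1. These intensities lie within the range of the negative-control probes, so neither is established as a transcript here. The part of that dim signal in the likeness to Gsdmd was not tested. For H2-Q7 the patterns most like it were Pex11a (r = 0.86), a factor of peroxisome division, Anxa8 (r = 0.77), an annexin, and Gabrg1 (r = 0.69), a subunit of a neurotransmitter receptor. Without db/db replicate 2 and C57BL/6 replicate 2, those were 0.25, 0.12 and -0.42. The likeness to H2-Q7 thus rested on these arrays. All levels share the scaling of their array, and the probes were picked for their r.

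Little of the surrounding pathways could be read on this array. Of 36 genes listed for inflammasomes and pyroptosis, 1 had a probe, Gsdmd itself. Of 34 genes of class I antigen presentation, 1 had a probe, H2-Q7, and of 14 interferon response genes 0 had one. The caspases that cleave gasdermin D, the cytokines released through its pores, the shared light chain of class I molecules and the peptide transporters are not analysed here for that reason.

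Markers of the cells that could carry the 2 transcripts were as sparse. Of 9 cardiomyocyte markers, Hspb7, a small heat shock protein, had a probe. Its log2 difference was -0.26 ± 0.16 (SE), with a limma unadjusted p of 0.15. Of 5 markers of T and NK cells, Il2 had one, with a log2 difference of 0.13 ± 0.13 (SE) and a limma unadjusted p of 0.351. The lists of macrophage, neutrophil, B cell, endothelial, fibroblast, smooth muscle, adipocyte and blood markers had 0 genes with a probe. The cardiac identity of the tissue therefore rests on the labels, and the part of infiltrating immune cells in the level of either gene was not tested.

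**Figure D4:**
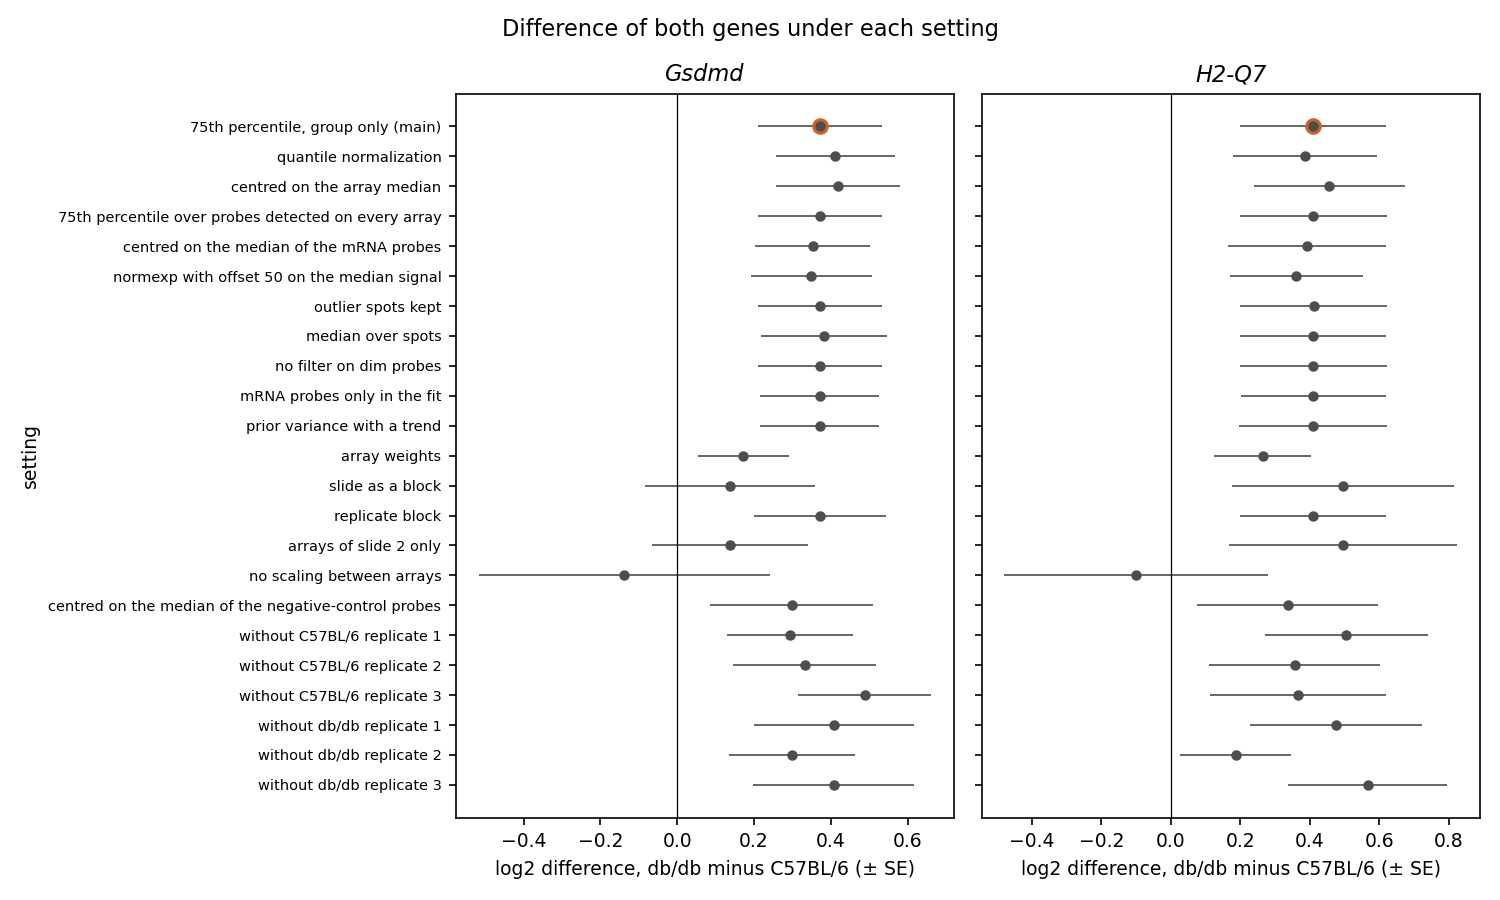
Log2 difference, db/db minus C57BL/6, with its limma SE for Gsdmd and H2-Q7 under the chosen setting (orange) and 22 alternatives, one per line. Both genes lie above 0 except without scaling between arrays (-0.14 and -0.10), and Gsdmd is nearest to 0 among the scaled settings with slide as a block (0.14).

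The direction was the same in 21 of the 22 alternatives for each gene, the exception being unscaled intensities. The alternatives are not independent. They reuse the same arrays, several only recentre each array, and slide as a block and slide 2 alone gave the same difference for each gene. For Gsdmd the unadjusted limma p was under 0.05 in 11 of 22 alternatives and ranged from 0.0232 to 0.715. It was above 0.05 when any array other than C57BL/6 replicate 3 was left out, with a highest value of 0.118 without C57BL/6 replicate 1. For H2-Q7 it was under 0.05 in 1 of 22, at 0.0311 without db/db replicate 3. Neither gene passed an adjusted limma p under 0.05 in any alternative run, with a lowest value of 0.261 for Gsdmd and 0.34 for H2-Q7, both with the mRNA probes alone.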

How the data were processed

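Each deposited file holds spot intensities of 1 Cy3 array. Per the file headers, Agilent Feature Extraction 11.0.1.1 subtracted background and detrended the processed intensity within the array, with no scaling between arrays, on a design of build mm9. Per the file headers, other deposited columns hold flags (saturation, outliers, signal over background) and the control type. The submitters' processing notes also name limma. The authors' deposited table of log2 values covers 14236 circRNA probes and 0 mRNA probes, and was not used for the results.

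Log2 intensities were averaged over the spots of a probe without outlier spots, and the 75th percentile of the array was subtracted. Probes well above background on at least 3 arrays, with a value on every array, were tested (14312 of 14330). The comparison used limma 3.58.1 under R 4.3.3 (two-sided, group only), with Benjamini-Hochberg adjustment over all of them, and the script was tested on simulated data. Genes and promoters were named through RefSeq tables of GRCm38.p6, with 44 of the 50 mRNA probes matched. Likeness was named as the 3 highest Pearson coefficients per gene, of which 1 is not reported here. The members and lists were chosen with earlier results of these data known. The replicates are separate donors, but none has a repeat array here, and the number of arrays limits the precision. No label pairs the arrays by replicate number. Deviations from the group means correlated at -0.26, -0.13 and 0.42 for same-numbered arrays, and at -0.33 to 0.50 for the others. With 3 arrays per group, these values cannot show whether the arrays were paired. Alternatives covered scaling, background, spots, filter, fit, slide, replicate block and each array left out.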

Additional observations from a re-analysis of the deposited data

How the results depend on the processing

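The fits without scaling and with centring on negative-control probes were added after the results were seen. Without scaling, the log2 differences turned to -0.138 for Gsdmd and -0.10 for H2-Q7, where the median of all probes was -0.50. With 1 array left out, the difference of Gsdmd lay between 0.29 and 0.49 and that of H2-Q7 between 0.19 (without db/db replicate 2) and 0.57 (without db/db replicate 3). Array weights gave 0.17 for Gsdmd and 0.26 for H2-Q7; the cause was not tested. The count of mRNA probes at an unadjusted limma p under 0.05, 8 in the chosen fit, was 5 with array weights, 5 without scaling, 4 with centring on negative-control probes, and 0 both with slide as a block and in slide 2 alone. It was 3 to 8 with 1 array left out: 4 without C57BL/6 replicate 1 and 3 without C57BL/6 replicate 2 or db/db replicate 2. With the replicate block, which rests on numbers no label explains, it was 6, and the unadjusted limma p was 0.0665 for Gsdmd and 0.0916 for H2-Q7. The authors' table could not be used as an alternative, since it lists no mRNA probe.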
